A study of Mus musculus with 4 samples.

Results

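The 4 Id genes (Id1, Id2, Id3 and Id4) and the 3 E protein genes (Tcf3, Tcf4 and Tcf12) were followed in mouse bone marrow cells on 4 Affymetrix arrays. They were taken by symbol: every probe set whose only annotated gene symbol is one of these 7 names was kept. This gave 7 probe sets, 1 for each gene, out of 28939 probe sets tested, which covered 19938 named genes. The cells had been sorted by the phenotype Lin- c-Kit+ Sca-1+, abbreviated KLS, which covers hematopoietic stem cells and early progenitors. There were 2 arrays labelled Klf7-/- (genotype KLF7 KO) and 2 labelled Klf7+/+ (wild type), and the names knockout and wild-type below follow those labels. Klf7 encodes a Kruppel-like zinc finger transcription factor, and the comparison asks how its loss relates to transcript levels in these cells. All 4 samples share the C57Bl/6 background. The donors were chimeric mice raised from fetal liver cells, whose bone marrow held both genotypes side by side. The labels give no age and no number of mice or embryos per array, and do not say whether both genotypes of a pair came from 1 animal. The spread between arrays of a group may therefore be technical.

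E proteins are basic helix-loop-helix transcription factors. They bind the E-box motif as homodimers, or as heterodimers with tissue-restricted partners such as Tal1. Id proteins carry the helix-loop-helix but no basic region, so they pair with E proteins and hold them off DNA. In blood formation, E proteins drive lymphoid priming and restrain the expansion of early progenitors. Id2 supports innate lymphoid and NK cells, Tcf4 is a defining factor of plasmacytoid dendritic cells, and Id1 and Id3 are classical targets of BMP signalling.

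The stretch just before the transcription start is shown for 4 of the genes, since Klf7, the gene named in the knockout label, belongs to a family whose proteins bind GC-rich motifs in promoters. RefSeq (GRCm38.p6) promoter entries were found for 5 of the 7 genes, Id2, Id3, Id4, Tcf3 and Tcf12, and Id1 and Tcf4 had none in the table used. The window is the 250 bases upstream of the start, read 5′ to 3′ on the gene's strand. Capitals mark the KLF-type box CCNCNCCC (runs of 8 or more letters) and the E-box CANNTG (runs of 6), both searched on both strands, and no E-box overlapped a KLF-type box in these entries. Id2 (chr12:25096093-25096342, minus strand) and Tcf12 (chr9:71896097-71896346, chr9:72111202-72111451 and chr9:72111820-72112069 for its 3 listed starts, minus strand, the last shown) are the genes with the widest spread and the largest difference below. Id4 (chr13:48260866-48261115, plus strand) and Tcf3 (chr10:80433636-80433885, minus strand) hold the most KLF-type boxes.
Id2: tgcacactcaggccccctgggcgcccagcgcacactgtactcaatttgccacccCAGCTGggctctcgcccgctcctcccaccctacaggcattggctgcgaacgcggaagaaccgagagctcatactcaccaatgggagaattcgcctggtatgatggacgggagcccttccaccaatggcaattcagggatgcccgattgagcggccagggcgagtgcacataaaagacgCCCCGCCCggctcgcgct
Id4: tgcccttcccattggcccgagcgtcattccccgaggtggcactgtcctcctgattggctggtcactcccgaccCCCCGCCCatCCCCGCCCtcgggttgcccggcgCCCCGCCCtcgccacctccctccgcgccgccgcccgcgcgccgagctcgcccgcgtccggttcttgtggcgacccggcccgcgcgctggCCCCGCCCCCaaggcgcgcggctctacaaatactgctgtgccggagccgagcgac
Tcf3: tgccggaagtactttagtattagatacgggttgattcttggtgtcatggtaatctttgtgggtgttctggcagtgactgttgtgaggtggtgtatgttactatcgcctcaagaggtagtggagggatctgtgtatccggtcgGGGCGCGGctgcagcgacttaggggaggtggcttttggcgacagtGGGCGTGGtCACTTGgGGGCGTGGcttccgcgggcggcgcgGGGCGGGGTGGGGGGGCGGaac
Tcf12: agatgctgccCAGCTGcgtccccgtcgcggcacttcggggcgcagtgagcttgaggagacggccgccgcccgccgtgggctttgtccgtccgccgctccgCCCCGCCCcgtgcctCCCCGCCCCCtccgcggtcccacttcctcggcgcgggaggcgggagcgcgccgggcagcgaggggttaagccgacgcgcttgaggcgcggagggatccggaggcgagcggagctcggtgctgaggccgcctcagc

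Counting overlapping matches separately, the Tcf3 window held 6 matches to CCNCNCCC, the Id4 window 5 and the Tcf12 window shown 3. Id3 held 2 and Id2 held 1. An E-box was present in the windows of Id2 (CAGCTG), Tcf3 (CACTTG) and Tcf12 (CAGCTG in the one shown), and its letters were not found in those of Id3 and Id4. These are common letters: 45.9% of 32851 RefSeq promoter windows of the same length held CCNCNCCC and 66.2% held CANNTG. The GC content was 75.6% for Id4, 76.8% for the Tcf12 window shown, 62.8% for Id2 and for Id3, and 59.6% for Tcf3, against a median of 52.4% over all windows. The other 2 Tcf12 starts differed from each other, with 78.0% GC and 1 KLF-type box at one, and 34.8% GC and no box at the other.

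No Id gene or E protein gene differed between the genotypes past the threshold, which was a Benjamini-Hochberg adjusted p of 0.05 in limma, a linear model with moderated variances fitted over all probe sets. Of the 7, 4 had a higher mean in knockout and 3 a lower one (45.0% of named genes were higher), none was 2-fold apart, and the differences ran from -0.09 for Id2 to 0.29 for Tcf12 on the log2 scale. The limma adjusted p of the 7 lay between 0.953 and 1. Over the whole array set, 0.00346% of probe sets passed, a single one, and 5.01% had an unadjusted p under 0.05, whereas none of the 7 did. A 2-fold difference of either sign was seen in 1.46% of named genes. With 2 arrays against 2, an exact permutation test cannot go below p = 0.333, so all testing rests on limma's spread borrowed across probe sets.

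Some facts bear on the whole table. The median intensity of an array lay between 51.0 and 52.3, and log2 intensities of array pairs correlated at 0.961 to 0.969 across probe sets, which are not independent replicates. Detection calls were not used here, so the level of a dim gene cannot be told from background. Klf7 itself read 6.59 and 6.18 on the knockout arrays, against 5.95 and 6.10 in the wild-type pair (log2 intensity), so its probe set was no lower where the label says knockout. The sources used here do not give the deleted part of the gene, so this probe set may check nothing. Of 6 sex-linked genes measured of 7 listed, 4 divided the arrays as genotype did. Xist, which silences an X chromosome in female cells, read 11.76 and 11.58 (knockout) against 5.24 and 4.80 (wild type) in log2 intensity. The Y-linked genes Eif2s3y, Uty and Kdm5d were lower in both knockout arrays, with differences of -4.58, -2.88 and -1.63, while Usp9y and Zfy1 were dim on all 4 arrays, at 2.59 to 3.06, and overlapped. Genotype and the sex of the cells cannot be told apart in any comparison below. Of 14 KLS markers listed, 12 were measured (the Sca-1 gene Ly6a was not analysed here), and 9 had a mean above the median probe set. Kit, the receptor used in the sort, read 9.55 to 10.12. The other markers of this list ranged widely. The stem cell markers Slamf1 and Tek read at most 4.49 and 5.58, whereas Mecom read 6.13 to 7.20, Hlf 8.72 to 9.40 and Meis1 9.25 to 9.77. The summed intensity of the 12 was 6545 and 5844 on the knockout arrays against 5608 and 4536 in wild type. Both knockout arrays were higher for 6 of the 12, beside 14.5% of named genes. These were Cd34 (by 0.62), Flt3 (0.48), Hlf (0.40), Kit (0.39), Meis1 (0.29) and Slamf1 (0.08). They were lower for 2, Mecom (-0.71) and Esam (-0.39), beside 18.6% of named genes. None of the 12 passed the threshold, and the part of this in the values below was not tested.

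**Figure D1:**
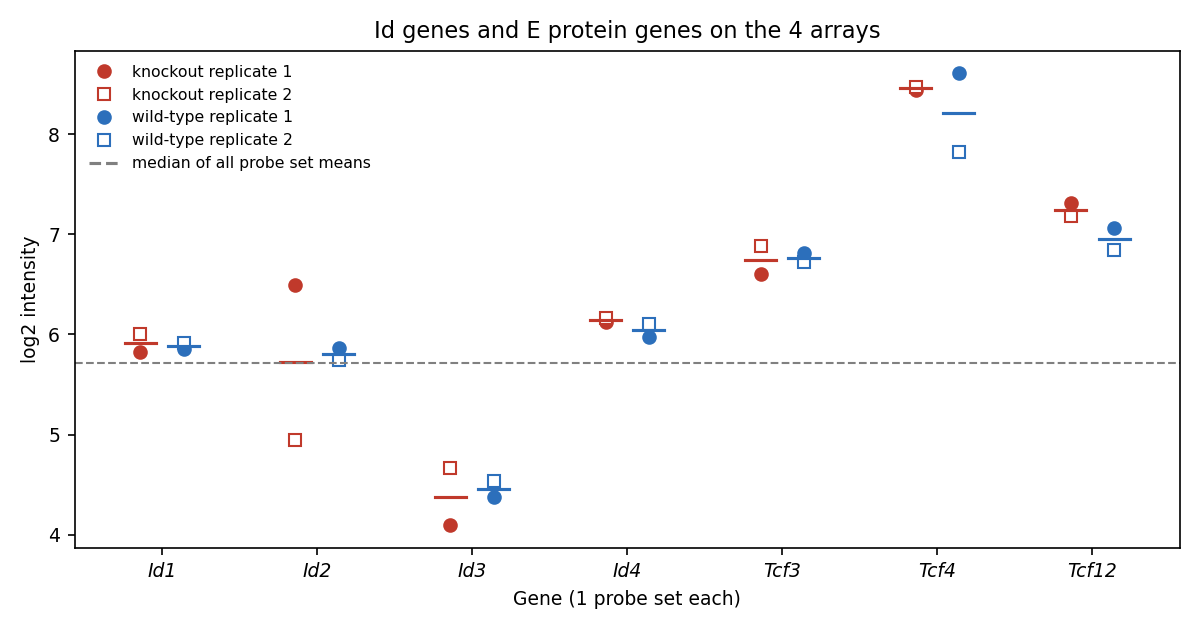
Log2 intensity (vertical axis) of the 7 genes on each of the 4 arrays, with short bars for the mean of the 2 arrays of a genotype and a dashed line for the median of all probe set means. The knockout arrays lie apart for Id2, at 6.49 and 4.95, and the wild-type arrays lie apart for Tcf4, at 8.61 and 7.82; both knockout symbols lie above both wild-type symbols for Id4 and Tcf12 only.

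Among the Id genes, Id1 was close to level between the genotypes. This inhibitor, induced by BMP signalling, read 5.83 and 6.00 on the knockout arrays, against 5.85 and 5.92 in the wild-type pair. Both wild-type values fell between the knockout values, so the groups overlapped. The difference, knockout minus wild type, was 0.03 ± 0.16 in log2 units (SE, n = 2 per group), with a 95% confidence interval of -0.40 to 0.46 and a limma adjusted p of 0.997. In fold terms the interval spans 0.760 to 1.38, which leaves out a 2-fold difference of the measured signal either way. How much of that signal is background was not tested. Its sign rested on 1 array, and without knockout replicate 2 the difference stood at -0.06.

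Id2, the inhibitor needed by innate lymphoid and NK cells, had the widest spread of the 7. Knockout replicate 1 was the highest of the 4 arrays at 6.49, knockout replicate 2 the lowest at 4.95, and the wild-type arrays lay between them at 5.87 and 5.75. As intensities these are 90.0 and 30.9 (knockout) against 58.4 and 53.6 (wild type). The gap between the knockout arrays was 1.54 on the log2 scale, at the 98.7th percentile of the same gap over all probe sets, whose median is 0.21, while the wild-type gap was 0.12. Between the genotypes the difference came to -0.09 ± 0.53 (SE, n = 2 per group), with a 95% interval of -1.48 to 1.31 (limma adjusted p of 1). That interval reaches from 0.358-fold to 2.48-fold, so differences of more than 2-fold in either direction lie within the error for Id2. Leaving out knockout replicate 1 gave -0.86 and leaving out knockout replicate 2 gave 0.68, so single arrays set both the sign and the size.

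Id3, the other BMP-induced inhibitor and a regulator of lymphocyte development, was dim, with a mean at the 18.9th percentile of all probe sets. It read 4.10 and 4.67 on the knockout arrays, against 4.38 and 4.53 in the wild-type pair. As with Id1 and Id2, both wild-type values lay between the knockout values, and knockout replicate 1 was the low one, the reverse of Id2. Knockout minus wild type came to -0.07 ± 0.25 (SE, n = 2 per group), with a 95% interval of -0.72 to 0.57 (limma adjusted p = 0.997). It stood at 0.21 without knockout replicate 1 and at 0.00327 without wild-type replicate 2.

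Id4, which is best known from the nervous system and the male germline, was higher in both knockout arrays by a small margin. It read 6.12 and 6.17 (knockout) against 5.98 and 6.10 (wild type). The arrays did not overlap, yet the lower knockout value exceeded the higher wild-type value by less than the 0.13 between the wild-type arrays. The genotypes differed by 0.10 ± 0.16 (SE, n = 2 per group), with a 95% interval of -0.31 to 0.52 (limma adjusted p = 0.980). Leaving out each array gave 0.04 to 0.17, where the sign was fixed in advance because the arrays did not overlap.

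Of the E protein genes, Tcf3, the main E protein gene of early B cells, had the smallest difference of the 7. Its arrays read 6.60 and 6.89 (knockout) against 6.81 and 6.72 (wild type), again with the wild-type values inside the knockout range. The log2 difference came to -0.02 ± 0.18 (SE, n = 2 per group), with a 95% interval of -0.49 to 0.45 (limma adjusted p of 1). It turned to 0.12 without knockout replicate 1 and to 0.02 without wild-type replicate 1. The Tcf3 probe set is annotated with 8 curated RefSeq transcripts, of 16 that the RefSeq table lists for the gene, and isoforms were not separated.

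Tcf4, the E protein gene of plasmacytoid dendritic cells, varied among the wild-type arrays. The knockout arrays read 8.44 and 8.47, and the wild-type arrays read 8.61 and 7.82, the highest and the lowest of the 4. The wild-type gap of 0.79 lay at the 91.1st percentile over all probe sets, whereas the knockout gap was 0.03. The estimate for the genotypes was 0.24 ± 0.30 (SE, n = 2 per group), with a 95% interval of -0.54 to 1.03 (limma adjusted p = 0.973). Wild-type replicate 2 supplied it: without that array the difference was -0.15, and without wild-type replicate 1 it was 0.64. The annotation pairs the probe set with 16 transcript accessions, 2 of them curated RefSeq transcripts, and its isoforms were not separated.

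Tcf12, an E protein gene that acts with Tcf3 in T cell development, showed the largest difference of the 7, short of the threshold. It read 7.31 and 7.18 on the knockout arrays, against 7.06 and 6.84 in the wild-type pair, so both knockout values lay above both wild-type values. The difference of 0.29 ± 0.17 (SE, n = 2 per group; 95% confidence interval -0.16 to 0.75) had an unadjusted limma p of 0.153 and an adjusted p of 0.953. This is 1.23-fold, and the interval ends at 1.68-fold. With each array left out the difference ran from 0.18 to 0.40, and its sign could not turn, since the arrays did not overlap. The probe set is annotated with all 5 curated RefSeq transcripts of Tcf12.

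**Figure D2:**
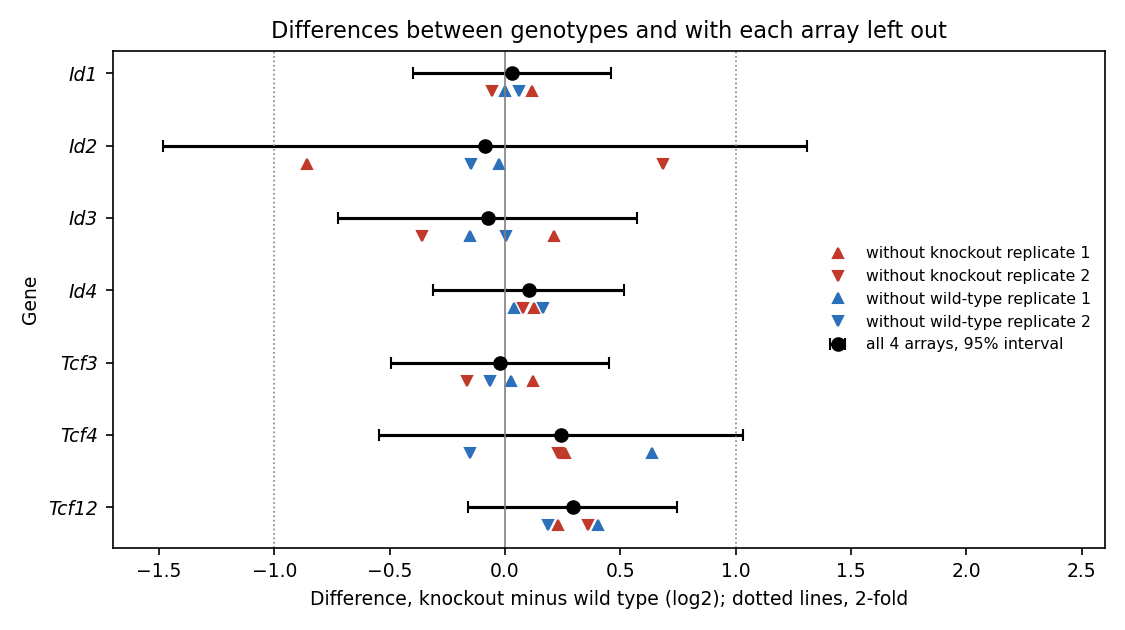
Difference between the genotypes (knockout minus wild type, log2, horizontal axis) for each of the 7 genes: black points and bars give the limma estimate and its 95% confidence interval over all 4 arrays, and triangles give the difference with 1 array left out. All 7 intervals include 0, 5 lie inside the dotted 2-fold lines, and the triangles of Id2 run from -0.86 to 0.68.

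Counted together, the 7 genes gave shares near those of the whole table. Only Id4 and Tcf12 had arrays that did not overlap between the genotypes, 2 of 7 or 28.6%, both higher in knockout, against 33.2% of named genes without overlap (14.5% higher and 18.6% lower in knockout). The larger gap between the 2 arrays of a genotype exceeded the difference between the genotypes for 6 of the 7, all but Tcf12, and for 78.5% of named genes. The interval excluded a 2-fold difference for 5 of the 7, all but Id2 and Tcf4, and for 77.8% of named genes. The median of the 7 differences was 0.03, beside -0.03 over named genes. None of these shares was tested, and nothing particular to the 7 genes is read from them.

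**Figure D3:**
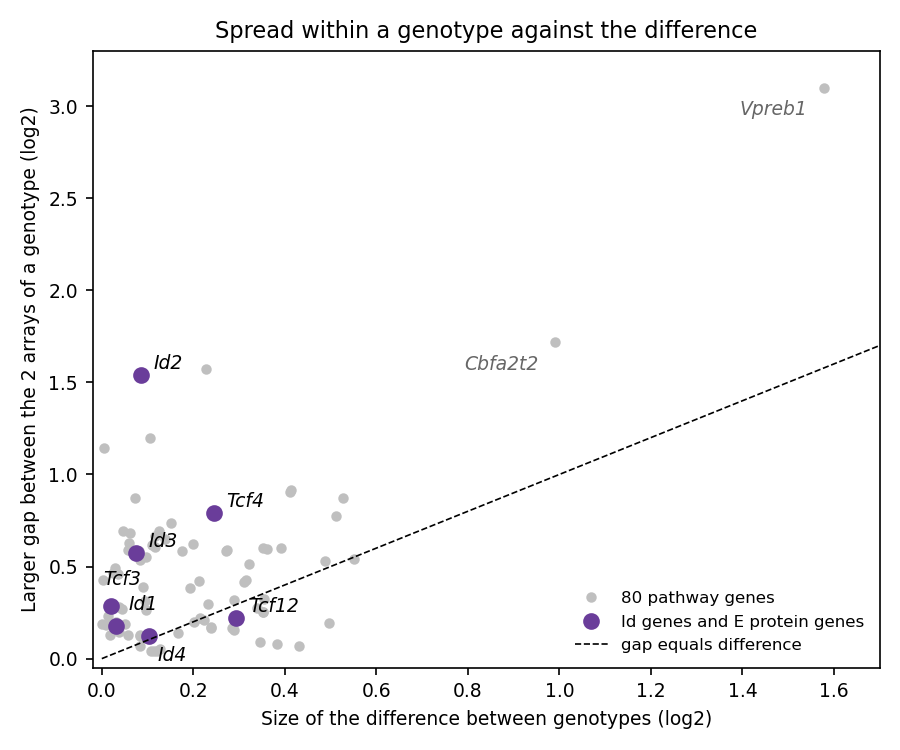
Size of the difference between the genotypes (log2, horizontal axis) against the larger gap between the 2 arrays of a genotype (log2, vertical axis), for the 7 genes in purple and 80 genes of the pathway lists in grey. Above the dashed line the gap exceeds the difference: 6 of the 7 genes lie there, with Id2 at a gap of 1.54, and Tcf12 lies below it.

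The genes that act with the Id and E proteins were read from 6 lists with 80 measured genes. None passed the threshold, in either direction, and the smallest limma adjusted p was 0.945. With the brightest probe set standing for each gene, an unadjusted limma p under 0.05 was reached by 2 of the 80, Acvr1 and Atoh1. The share among named genes was 4.81%. The arrays did not overlap for 28 of 80 genes (12 higher and 16 lower in knockout), or 35%, beside 33.2% of named genes. The median difference was -0.03, the same to 2 decimals as over all named genes.

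The input to the Id genes is BMP and TGF-beta signalling, through receptors and Smad proteins. Of 21 genes measured, 0 passed the threshold in either direction, 12 had a positive and 9 a negative difference, and the median was 0.03. Bmpr2, the type II BMP receptor gene, read 8.14 and 7.69 (knockout) against 7.09 and 7.63 (wild type), without overlap, a difference of 0.55 ± 0.28 (SE, n = 2 per group; limma adjusted p = 0.949). Smurf1, a ubiquitin ligase gene that removes Smads, differed by 0.51 ± 0.35 with overlapping arrays, and by 0.13 without wild-type replicate 1. Acvr1, a type I receptor gene that signals for BMPs, was named after its values were seen and read 5.59 and 5.60 against 5.20 and 5.13 (limma adjusted p = 0.945). Eng, an accessory receptor gene also named after its values were seen, read 6.28 and 6.81 against 6.18 and 5.93. Both knockout arrays were higher for 3 of the 21, Bmpr2, Acvr1 and Eng, beside 14.5% of named genes, and lower for 2, Smad6 and Smad9, beside 18.6%. Of the Smads that carry BMP signals, also named after their values were seen, Smad1 read 5.87 and 6.07 against 6.27 and 5.58, and Smad5 differed by 0.39, both with overlap. Beside these, the BMP-induced Id1 and Id3 overlapped between the genotypes, with differences of 0.03 and -0.07.

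The tissue-restricted bHLH partners of E proteins gave 5 positive and 14 negative differences among 19 measured genes, with a median of -0.08 and 0 past the threshold. Both knockout arrays were lower for 8 of the 19 and higher for 0, beside 18.6% and 14.5% of named genes, of which 45.0% had a positive difference. Lyl1, a partner that acts in stem and lymphoid progenitors, read 7.35 and 7.27 (knockout) against 7.67 and 7.72 (wild type). Its values were tight within each genotype and apart between them, and the difference of -0.38 ± 0.15 (SE, n = 2 per group; 95% confidence interval -0.79 to 0.02) had a limma adjusted p of 0.945. It stayed between -0.42 and -0.34 with each array left out. Tal1, its close relative and a founding factor of blood stem cells, read 6.57 and 7.25 (knockout) against 6.80 and 6.90 (wild type), with both wild-type values inside the knockout range and a difference of 0.06 ± 0.27. Of the other named partners, Tcf23 differed by -0.24, Hand2 by -0.08, Myod1 by 0.05 and Tcf15 by 0.03, with SE between 0.16 and 0.22. Most of this list is dim, since 7 of the 19 had a mean above the median probe set.

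The LIM and GATA proteins join Tal1 and E proteins on DNA. Among 10 measured genes 5 differences were positive and 5 negative, the median was -0.01 and 0 passed. Both knockout arrays were higher for 2 and lower for 1 of the 10, beside 14.5% and 18.6% of named genes. Lmo2, the bridging protein gene of the complex, was bright and higher in both knockout arrays, at 9.95 and 9.97 against 9.74 and 9.59, a difference of 0.29 ± 0.16 (SE, n = 2 per group; limma adjusted p = 0.949). Lmo4, a related LIM-only gene, read 6.12 and 5.52 against 6.42 and 5.92, which overlap, and differed by -0.35 ± 0.30, or by -0.05 without knockout replicate 2.

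Cofactors that E proteins recruit had a median difference of 0.18 over 8 measured genes, 6 positive and 2 negative, and 0 passed. Both knockout arrays were higher for 4 of the 8 and lower for 0, beside 14.5% and 18.6% of named genes. Cbfa2t2, a corepressor gene of the ETO family, read 7.67 in knockout replicate 1 and 5.95 in knockout replicate 2, against 5.84 and 5.80 in wild type. Its difference of 0.99 ± 0.58 (limma adjusted p = 0.953) came from 1 array and stood at 0.13 without knockout replicate 1. The second Cbfa2t2 probe set read 5.77 and 6.03 against 5.22 and 5.49, a difference of 0.55 ± 0.19, and there knockout replicate 1 was the lower knockout array. Kat2a, a histone acetyltransferase gene, differed by 0.53 ± 0.37 with overlapping arrays, and by 0.09 without wild-type replicate 2.

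The zinc finger repressors that compete for E-boxes numbered 5, with a median of -0.13 and 0 past the threshold. They were lower in both knockout arrays for 3 of the 5, beside 18.6% of named genes. Snai1 read 6.30 and 6.22 (knockout) against 6.56 and 6.65 (wild type), a difference of -0.35 ± 0.16 (SE, n = 2 per group; limma adjusted p = 0.945) that held between -0.39 and -0.30 with each array left out. Zeb2, which stem and myeloid cells need, read 7.57 and 7.57 against 7.67 and 7.72, a difference of -0.13 ± 0.15. Both sets of arrays lay apart, by little in the case of Zeb2.

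Lymphoid target genes of E proteins were the readout of the pathway. Of 17 measured, 6 differences were positive and 11 negative, the median was -0.04, and 0 passed. Both knockout arrays were higher for 3 and lower for 2 of the 17, beside 14.5% and 18.6% of named genes. Dntt, the terminal transferase gene of early lymphoid progenitors, was bright and read 9.77 and 10.05 (knockout) against 9.49 and 9.65 (wild type), a difference of 0.34 ± 0.18 (SE, n = 2 per group; limma adjusted p = 0.949). Vpreb1 and Vpreb2 are closely related surrogate light chain genes. Vpreb2 read 6.49 and 6.91 against 6.42 and 6.35 and differed by 0.31 ± 0.21, and by 0.10 without knockout replicate 2. Vpreb1 read 8.59 in knockout replicate 1 and 5.35 to 5.57 on the other 3 arrays, so its difference of 1.58 ± 1.03 became 0.03 without that array. Igll1, the other surrogate light chain gene, was at 5.67 in that same array and 6.01 in knockout replicate 2, against 6.50 and 5.90, which gives -0.36 ± 0.27, or -0.06 without wild-type replicate 1. Foxo1, a transcription factor gene of the B lineage, differed by 0.31 ± 0.24, and by 0.10 without wild-type replicate 2. Il7r, the interleukin 7 receptor gene, read 5.71 and 5.97 against 5.97 and 6.29, a difference of -0.29 ± 0.20, or -0.13 without wild-type replicate 2.

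**Figure D4:**
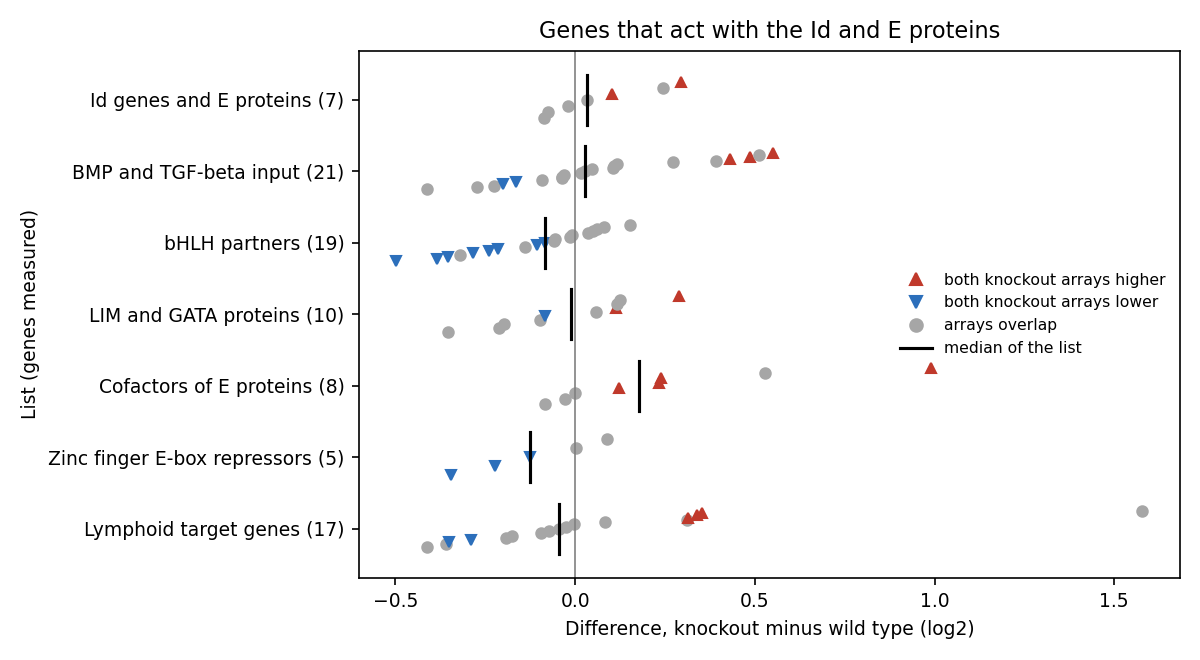
Difference between the genotypes (knockout minus wild type, log2, horizontal axis) for the 7 genes and for each measured gene of the 6 pathway lists, with triangles where the arrays did not overlap and a black bar at the list's median. The list medians run from -0.13 for the zinc finger repressors to 0.18 for the cofactors, and Vpreb1 at 1.58 lies farthest out.

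Knockout replicate 1 lay at the end of the range for several of these genes, picked out after their values were seen. It was the highest array for Id2 (6.49), Cbfa2t2 (7.67) and Vpreb1 (8.59) and the lowest for Id3 (4.10), Tcf3 (6.60) and Tal1 (6.57). For the second Cbfa2t2 probe set it was not the highest, at 5.77 beside 6.03 in knockout replicate 2. Knockout replicate 2 also lay at an end, lowest for Id2 (4.95) and highest for Id3 (4.67), Tcf3 (6.89) and Tal1 (7.25). How often each array lies at an end over all probe sets was not counted, so neither is singled out. The B cell markers, 9 measured of 10, gave 1 gene higher and 1 lower in both knockout arrays, beside 14.5% and 18.6% of named genes. The other 7 overlapped. All 10 granulocyte markers were measured, and their summed intensity was 4381 and 2326 (knockout) against 3607 and 3104 (wild type), so the knockout arrays lay at both ends, as they did for Id2. S100a9, a calprotectin subunit gene of neutrophils, read 10.40 and 8.02 (knockout) against 8.80 and 10.09 (wild type). S100a8, its partner subunit gene, read 9.59 and 7.54 against 8.34 and 8.58, and Camp, an antimicrobial peptide gene of neutrophil granules, read 7.75 and 5.98 against 6.33 and 6.37. S100a9, S100a8 and Camp were picked out after their values were seen, and the rest of the 10 did not have the knockout arrays at both ends. Ngp (8.04 and 7.08 against 7.26 and 6.90) and Ltf (5.48 and 4.97 against 4.90 and 5.19) were highest in knockout replicate 1 and lowest in a wild-type array. Both knockout arrays were lower for 2, Elane (5.04 and 5.41 against 6.83 and 5.75) and Retnlg (5.93 and 5.67 against 7.06 and 7.14). They were higher for 0, beside 18.6% lower and 14.5% higher among named genes. For Mpo, Prtn3 and Ctsg the wild-type arrays lay at both ends. The part of granulocyte RNA in the Id2 spread was not tested.

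Markers of cell types in which single Id or E protein genes are prominent were summed beside them. For NK and innate lymphoid cells, where Id2 is high, all 11 listed genes were measured and their summed intensity was 357 and 358 (knockout) against 393 and 395 (wild type). The defining receptor genes Ncr1 and Klrb1c read at most 4.91 and 4.33 (log2), under the median probe set. For plasmacytoid dendritic cells, where Tcf4 is high, 8 of 9 were measured, at 531 and 547 against 593 and 580. Of these 8, both knockout arrays were lower for 3 and higher for 1, beside 18.6% and 14.5% of named genes. Among the 3 was Siglech, picked out after its values were seen (5.13 and 5.40 against 5.62 and 5.98). The higher one was Bst2 (7.37 and 6.84 against 6.76 and 6.70). Of the Tcf4 values, the highest and the lowest were both wild type. For endothelial cells, where Id1 and Id3 are high, all 10 were measured, at 642 and 680 against 701 and 702, with Cdh5 at 5.09 to 5.35. Pecam1, the brightest of the 10, weighs most on this sum and overlapped, at 7.44 and 7.90 against 7.89 and 7.76. Both knockout arrays were lower for 3 of the 10 and higher for 1, beside 18.6% and 14.5% of named genes, and 6 overlapped. Many of these markers were dim: 2 of the 11, 4 of the 8 and 4 of the 10 had a mean above the median probe set. Lower sums in knockout were not particular to these cell types. Stromal markers summed to 447 and 426 against 452 and 474, and monocyte and macrophage markers to 559 and 542 against 576 and 619. KLS and B cell sums were higher in knockout, for B cells at 790 and 479 against 430 and 403. The B cell sum leaned on 2 genes, picked out after their values were seen. Vpreb1 was the brightest B cell marker in knockout replicate 1 (8.59), and Cd72 read 6.59 and 7.23 against 5.95 and 5.75. Of the 9 B cell markers measured, 7 overlapped and 1 was lower in both knockout arrays. Bulk signal cannot tell fewer cells of a type from less RNA per cell, and the part of any such cells in the values of the Id and E protein genes was not tested.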

How the data were processed

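The authors deposited 1 table of probe set intensities for the 4 arrays, on a linear scale reaching 17720.8 among tested probe sets. Per the submitters' processing notes, the tools were RMA and Affymetrix Expression Console (settings unstated); RNA was amplified with the NuGen Ovation System, per the labels' protocols. Sources used here give no genome build. RMA usually gives log2 values, so log2 was taken here, with no further normalization. Such summarised, amplified signal may compress differences of dim genes.

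The first 6615 of 35554 rows precede the first annotated probe set and were left out as presumed controls. Symbols came from the platform annotation, updated by Entrez ID through RefSeq (21698 matched; 21789 probe sets had 1 symbol, 1621 several and 5529 none). The brightest probe set stood for a gene that had several. The genotypes were compared by limma 3.58.1 under R 4.3.3 (lmFit, eBayes, two-sided, Benjamini-Hochberg over all probe sets), on 2 residual degrees of freedom. The steps were tested on simulated data. Of each pathway list, the 2 genes (6 for partners and lymphoid targets) with the largest absolute difference and a mean above the median probe set were named. The genes, lists, motifs and rules were chosen with earlier results of these data known. Precision is limited by the number of arrays. Alternatives were an offset of 32, quantile normalization again, cyclic loess, a dim filter at the 25th percentile, an intensity trend in the variance (also robust), leaving out each array, a block for the replicate number, all rows kept, and the mean of a gene's probe sets.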

Additional observations from a re-analysis of the deposited data

How the results depend on the processing

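The count of Id and E protein genes past the limma threshold was 0 in all alternatives run, as was that of the pathway genes, and the smallest adjusted p of the 7 genes in any alternative was 0.675. Their count without overlap stayed at 2 in the others that gave a count, except that leaving out an array, which makes overlap rarer, gave 3 to 6. The 1 probe set past the threshold in the whole table, Xist, became 0 with an offset of 32, quantile normalization again, an intensity trend (also robust), all rows kept and each array left out (0 to 0); the cause was not tested. With the replicate block it was also 0, and the block changed no call of the 7 genes; the labels do not tie equal numbers to a shared mouse, and deviations of equally numbered arrays correlated at 0.04. Over 90 alternative values of the 7 differences, 83 kept their sign and side of the threshold and 7 turned, all with an array left out: Id1 ran from -0.056 to 0.12, Id2 from -0.86 to 0.68, Id3 from -0.36 to 0.21, Tcf3 from -0.16 to 0.12 and Tcf4 from -0.15 to 0.64. Among the named pathway genes 255 values kept both and 5 turned, with Tal1 from -0.28 to 0.40, Myod1 from -0.044 to 0.15 and Tcf15 from -0.20 to 0.27. The dim filter, the intensity trend (also robust), the replicate block and all rows kept leave the size of a difference unchanged, so their values could not turn. The dim filter removed Id3, so it gave no value there. Each of the 7 genes has 1 probe set, so the mean over probe sets equals the main difference and could not turn either. The counts of values that kept their sign therefore overstate how stable the differences are. Where 1 array of a genotype was left, its spread was taken from the other genotype. Signal over background was not used, so Id3 is the least certain level. Id1, Id2 and Id4 had means at percentiles 55.6, 51.6 and 61.3 of all probe sets. Hand2 and Myod1, partners of other tissues, lay at 56.0 and 62.6. The levels of these 3 Id genes therefore cannot be told from background either, and their intervals describe measured signal.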
